A study of Mus musculus with 31 samples.

Results

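The proteasome subunits described here are 36 genes chosen by symbol among the 41255 gene rows of the deposited tables. They comprise the 14 constitutive subunits of the 20S core (Psma1 to Psma7 and Psmb1 to Psmb7), the 20 genes of the 19S cap (Psmc1 to Psmc6 and Psmd1 to Psmd14) and the other activators Psme3 and Psme4. All 36 had a row in both tables and passed the filter on low values, so each was tested in every comparison. Libraries came from Ba/F3 cells, a mouse lymphoid line that depends on interleukin-3, in which the endogenous Rpl10 was knocked down by shRNA and a human RPL10 cDNA was supplied by a retrovirus. R98S cells carried RPL10 with the R98S substitution found in T-cell leukemia, and WT cells carried unmutated RPL10, so both genotypes share the knockdown and the vector. Each genotype was represented by 3 clones grown from single cells (R98S clones 11, 13 and 35 and WT clones 28, 29 and 36). Libraries carry replicate numbers 1 to 3, but not every clone had every library. WT clone 36 had no library of number 1 and a polysomal library in number 3 alone. Polysomal RNA also lacked WT clone 28 of number 1 and R98S clone 11 of number 2. Total mRNA was sequenced in 9 R98S and 8 WT libraries, and RNA pooled from fractions holding at least 2 ribosomes, called polysomal RNA, in 8 R98S and 6 WT libraries. A polysomal to total ratio, a measure of translational efficiency, could be formed for 14 cultures (8 R98S and 6 WT).

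The proteasome degrades proteins that carry ubiquitin chains. Its barrel-shaped core is built of stacked rings of alpha subunits, which gate the channel, and beta subunits, of which Psmb5, Psmb6 and Psmb7 carry the catalytic sites. The cap has a base with a ring of ATPases (the Psmc genes) that unfold substrates and a lid that removes ubiquitin chains, and its ubiquitin receptors lie mainly in the base. Lymphoid cells also express the immunoproteasome subunits Psmb8, Psmb9 and Psmb10, which can replace the constitutive catalytic subunits. Subunit genes are known to be induced together by the transcription factor Nfe2l1 when proteasome activity falls short.

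Read depth ran from 8831180 to 22059792 gene-assigned reads per library. Rpl10 itself was read at normalized values of 901 to 2984 in R98S and 620 to 5715 in WT total mRNA. The labels name no library without the knockdown, and the part of the reads that came from the human cDNA was not tested, so these values do not check the knockdown. The interleukin-3 receptor chain Csf2rb was high in every total mRNA library (28599 to 119306), but the summed list of 5 markers of the line, mostly Csf2rb and Csf2rb2, differed with genotype without overlap (109018 to 220754 in R98S and 55880 to 101127 in WT). Its part in the results was not tested. A list of 6 B-lineage markers summed to 1122 to 1602 in R98S and 963 to 1158 in WT, and its member Cd79a was read in every total mRNA library (706 to 1293), whereas the epithelial markers Epcam, Krt8 and Krt18 summed to at most 3.89. Pax5, a factor that commits cells to the B lineage, was at 0 in every total mRNA library. A list of 4 macrophage markers summed to between 145 and 3194 in R98S and between 2467 and 6529 in WT total mRNA, mostly Adgre1, with overlap. In polysomal RNA that list did not overlap (264 to 1231 against 1630.03 to 3564), nor did 4 T-lineage markers, mostly Cd3d (33.4 to 285 in R98S and 3.85 to 18.8 in WT). The part of these lists was not tested either. The replicate number moved the polysomal libraries strongly. Their normalized values summed to between 16404975 and 18467666 in number 3 and to between 12382109 and 13546555 in numbers 1 and 2, and WT had a single polysomal library in number 1, from clone 29. In bulk RNA, more cells with a transcript and more transcript per cell cannot be told apart.

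Subunit mRNAs were abundant and unequal. Per kilobase of the principal annotated transcript, the mean total mRNA level over the 17 libraries was highest for Psma6, an alpha subunit, at 3115 ± 481 (SD). Psma7 and Psmb4 followed at 2918 ± 584 and 2915 ± 480.2, and these 3 did not differ beyond their spread. Over the 14 core genes the median level per kilobase was 1911 (range 761 to 3115). Over the 20 cap genes it was 1212 (range 162 to 1907), with Psmc1, an ATPase, at the top. The assembly chaperones of the cap, which leave the finished particle, lay near the bottom, with Psmd10 at 375 ± 36, Psmd5 at 368 ± 44 and Psmd9 at 162 ± 27. Psmd11, a lid subunit, was also low at 212 ± 32. Psme3, whose product opens the core without ubiquitin, reached 1448 ± 428, and Psme4, a large nuclear activator, 452 ± 79.6. Psma2 (761 ± 161) and Psma3 (877 ± 214) were the lowest core genes on this scale, but their principal transcripts in the annotation (2911 and 2846 bases) are longer than those of the other core genes, which divides their values further. Reads of Psmb5, Psmb3 and Psma5 are uncertain, because 57.1%, 55.8% and 54.5% of their 50-base windows also occur in other annotated genes.

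**Figure D1:**
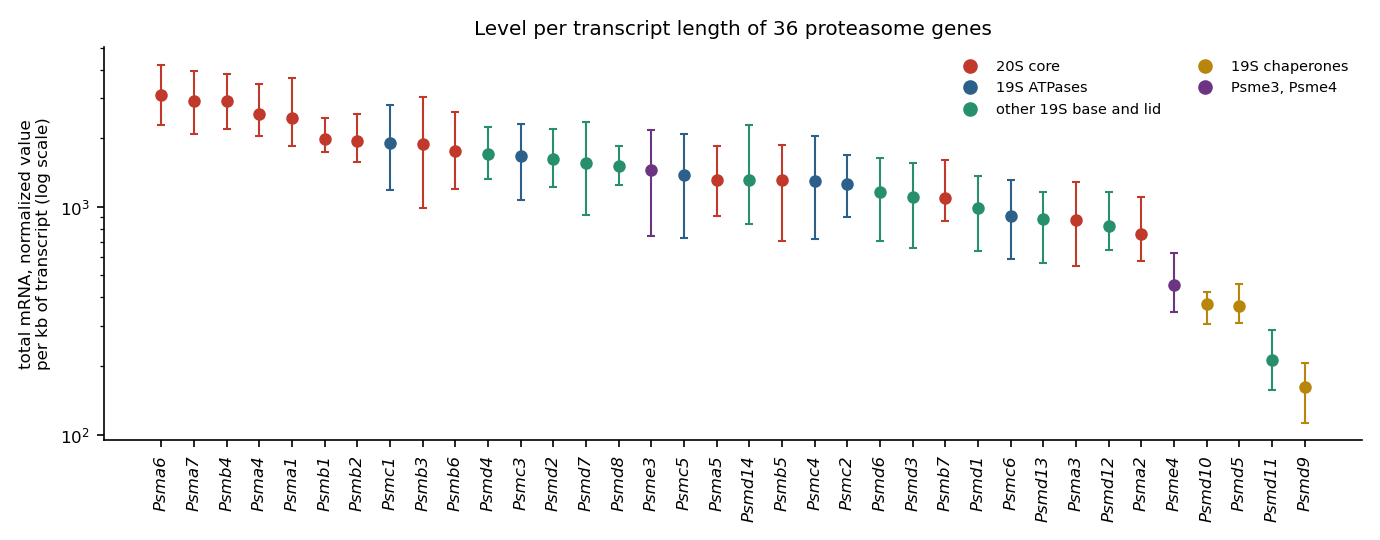
Mean total mRNA level of each of the 36 genes, as normalized value per kilobase of principal transcript on a log axis, with bars from the lowest to the highest of 17 libraries and colours for the subcomplex. Core genes (red) take the first 7 places, from 3115 for Psma6 downwards, and the cap chaperones (yellow) lie at 375 or lower.

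In total mRNA, R98S cells had less Psma2 and Psma5, a pair of alpha-ring subunits, and more Psmd13 and Psmd6, a pair of lid subunits, and Psmc6, an ATPase of the cap base. No other member passed the test (limma on log2 values, Benjamini-Hochberg adjusted p under 0.1 over 11133 genes). Thus 2 of 14 core genes were called, both lower (14.3%), and 3 of 20 cap genes, all higher (15.0%). Over all genes tested 30.3% were called, 14.5% as higher and 15.8% as lower. In this fit the share of core and cap genes called, 5 of 34 or 14.7%, was thus below the background. With the replicate number as a block 13 of 34 were called, close to the background of 38.4%. The median log2 fold change was 0.11 for the core and 0.13 for the cap, beside 0.00 over all genes. The plot of fold changes for each member shows these 5 filled.

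**Figure D2:**
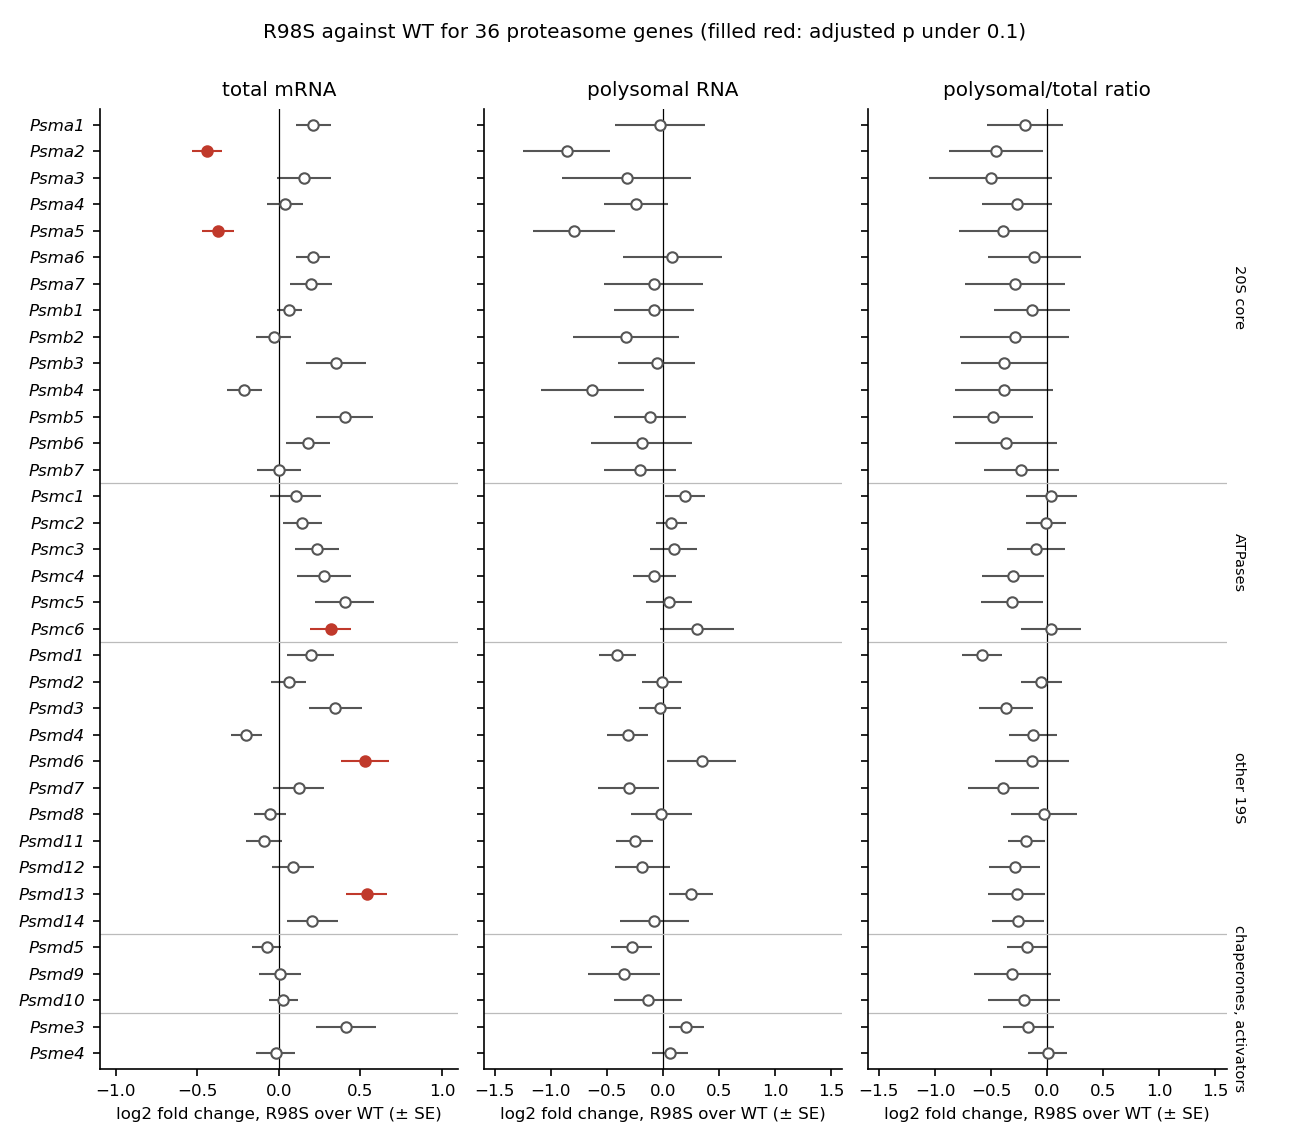
Log2 fold change of R98S over WT (± SE) for each of the 36 genes in total mRNA, polysomal RNA and the polysomal/total ratio, with filled red points for adjusted p under 0.1. Psma2 and Psma5 lie below 0 and Psmc6, Psmd6 and Psmd13 above 0 in total mRNA; no point is filled in the other panels.

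Psma2 was read at 1679.8, 1857 and 2134 in the lowest, median and highest R98S library and at 2149.7, 2403 and 3209 in WT. Every R98S library was below every WT library, and no other of the 36 members had groups that did not overlap. The WT clone 36 library of number 1, which the authors left out because it clustered with R98S libraries, is not among these. Of all genes tested, 3.53% had groups that did not overlap. The log2 fold change was -0.44 ± 0.09 (SE, adjusted p = 0.00239 by limma), and the difference was -0.70, -0.24 and -0.47 within numbers 1, 2 and 3. Psma5 ran from 1135 over 1465 to 1631 in R98S and from 1562 over 1862 to 2300.1 in WT. The ranges met only at their edges, and the log2 fold change was -0.37 ± 0.10 (adjusted p = 0.00887 by limma) with -0.57, -0.29 and -0.33 within the 3 numbers. With fewer libraries within a number, the calls held in number 1 (adjusted p = 0.0225 for Psma2 and 0.0614 for Psma5 by limma) and were lost in numbers 2 and 3; of all genes 12.3%, 2.16% and 9.40% were called within the 3 numbers.

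Psmd13 was read at 1464 to 2313 in R98S (median 2158) and at 1128 to 1939 in WT (median 1285). The log2 fold change was 0.54 ± 0.12 (adjusted p = 0.00479 by limma), and R98S was higher within each number, by 0.35, 0.46 and 0.69. Psmd6 was read at 1349 to 2269 in R98S (median 2052) and at 979.7 to 1965 in WT (median 1184). Its log2 fold change was 0.53 ± 0.15 (adjusted p = 0.0150 by limma), with 0.23, 0.51 and 0.70 within the numbers. The 2 lowest R98S libraries for both genes were clones 13 and 35 of number 2, and the highest WT library for both was clone 29 of number 1, so the groups overlapped. Of the exonic bases of Psmd13, 10.1% overlap Sirt3 on the opposite strand, and the strand setting of the counting is not given. Psmc6 was read at 1776 to 2931 in R98S (median 2255) and at 1313 to 2241 in WT (median 1806). Its log2 fold change was 0.32 ± 0.13 (adjusted p = 0.0787 by limma), and this call was the least stable of the 5. It was kept in 10 of 23 alternative settings, against 21 for Psma2 and Psma5, 20 for Psmd13 and 18 for Psmd6.

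**Figure D3:**
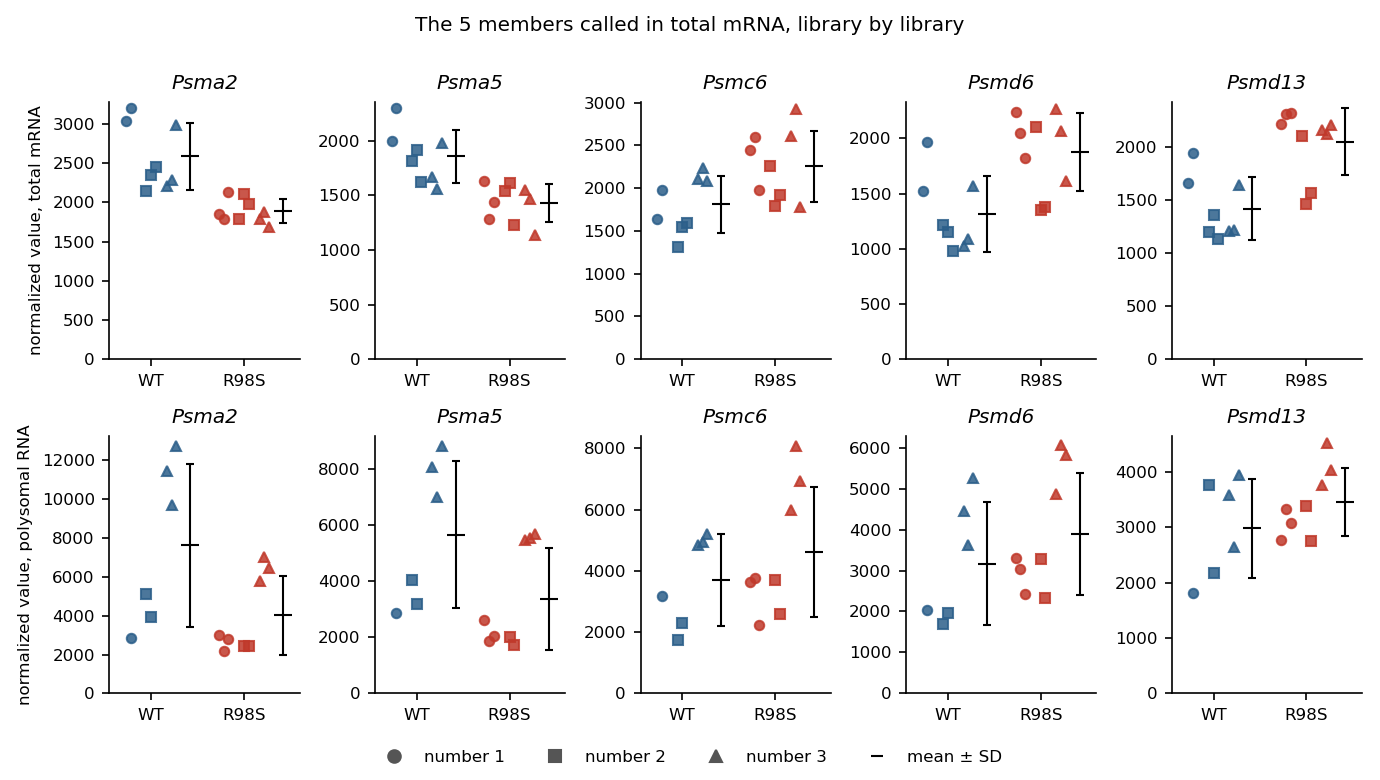
Normalized value of the 5 called members in every library of total mRNA (top) and polysomal RNA (bottom), by genotype, with marker shape for the replicate number and the mean ± SD in black. The 9 R98S total mRNA libraries of Psma2 lie between 1679.8 and 2134, below all 8 WT libraries, and in polysomal RNA the number 3 libraries (triangles) lie highest for Psma2 and Psma5 in both genotypes.

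The promoters of these 5 genes are shown because they are the members that differed. Each window runs from 250 bases before to 50 bases after the RefSeq transcription start (GRCm38.p6), 5′ to 3′ along the gene. The windows are chr13:14612992-14613291 on the plus strand, chr3:108256676-108256975 on the plus strand, chr14:45329574-45329873 on the plus strand, chr14:14120896-14121195 on the minus strand and chr7:140882144-140882443 on the plus strand. Capitals mark matches, on either strand, to TGACNNNGC (the element bound by Nfe2l1 and related factors), CCAAT (the box bound by NF-Y) and CCGGAAG (the core site of ETS factors), and no matches overlapped each other.
Psma2: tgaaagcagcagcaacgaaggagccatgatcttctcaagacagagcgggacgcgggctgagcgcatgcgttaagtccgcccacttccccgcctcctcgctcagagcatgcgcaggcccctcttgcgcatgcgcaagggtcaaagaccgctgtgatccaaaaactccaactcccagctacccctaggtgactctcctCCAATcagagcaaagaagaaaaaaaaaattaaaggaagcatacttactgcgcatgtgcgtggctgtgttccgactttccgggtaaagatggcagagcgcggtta
Psma5: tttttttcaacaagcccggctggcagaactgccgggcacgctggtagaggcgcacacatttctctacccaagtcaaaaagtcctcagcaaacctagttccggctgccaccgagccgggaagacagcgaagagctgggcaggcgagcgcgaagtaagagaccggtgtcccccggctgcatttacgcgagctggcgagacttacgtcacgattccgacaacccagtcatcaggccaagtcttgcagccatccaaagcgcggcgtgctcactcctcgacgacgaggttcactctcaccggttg
Psmc6: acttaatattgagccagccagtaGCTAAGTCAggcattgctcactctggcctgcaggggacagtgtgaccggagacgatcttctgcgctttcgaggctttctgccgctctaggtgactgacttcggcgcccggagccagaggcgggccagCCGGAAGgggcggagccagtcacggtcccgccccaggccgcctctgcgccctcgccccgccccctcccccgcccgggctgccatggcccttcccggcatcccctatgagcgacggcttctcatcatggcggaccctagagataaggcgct
Psmd6: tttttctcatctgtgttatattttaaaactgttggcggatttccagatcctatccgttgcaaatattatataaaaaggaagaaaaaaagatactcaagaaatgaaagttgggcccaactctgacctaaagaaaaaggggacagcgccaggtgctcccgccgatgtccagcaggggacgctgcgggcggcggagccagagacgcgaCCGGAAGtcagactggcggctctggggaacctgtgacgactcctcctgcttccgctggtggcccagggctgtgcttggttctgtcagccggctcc
Psmd13: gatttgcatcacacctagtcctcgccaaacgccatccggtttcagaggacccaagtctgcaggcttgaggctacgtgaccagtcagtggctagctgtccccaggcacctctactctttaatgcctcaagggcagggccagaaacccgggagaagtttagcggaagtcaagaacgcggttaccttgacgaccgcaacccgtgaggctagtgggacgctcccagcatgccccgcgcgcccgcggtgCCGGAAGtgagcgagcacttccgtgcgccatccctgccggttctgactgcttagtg
In these windows CCGGAAG occurred in all 3 genes called higher and in neither of the genes called lower, TGACNNNGC occurred in Psmc6 and CCAAT in Psma2. Psma5 held none of the 3. RefSeq windows were found for 30 of the 36 members, and 12 of these 30 (40.0%) held CCGGAAG, 9 of 17 cap genes and 1 of 11 core genes among them, beside 8.86% of all 32851 promoter windows. CCAAT was in 12 of 30 members (beside 37.4% of all windows) and TGACNNNGC in 6 of 30 (beside 12.4%), among them the catalytic genes Psmb5 and Psmb6. In all 8 letter patterns were searched on both strands. GGGCGG was in 19 of 30 members (beside 35.7% of all windows), TATAAA in 3 (beside 13.6%), AAGATGGCG in 2 (beside 1.40%), the palindrome bound by NRF1 in 1, Psma2 (beside 0.971%), and TGACGTCA in 0 (beside 1.79%). A match describes letters only.

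The catalytic core genes were not called. Psmb5, which carries the chymotrypsin-like activity, was read at 931 to 1688 in R98S (median 1388) and at 639 to 1500.1 in WT (median 863), a log2 fold change of 0.40 ± 0.17 (adjusted p = 0.103 by limma). Psmb6, the caspase-like subunit, was read at 1140.2 to 2074 in R98S (median 1456) and 955 to 1763 in WT (median 1196), a difference of 0.18 ± 0.14 (adjusted p = 0.369). Psmb7, the trypsin-like subunit, had medians of 1130.2 and 1145 and a difference of 0.00 ± 0.14 (adjusted p = 0.994), with ranges of 1009 to 1859 and 1069 to 1601. All these groups overlapped. The 9 other core genes had log2 fold changes between -0.21 (Psmb4) and 0.35 (Psmb3).

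Among the cap genes not called, all 5 other ATPases had values above 0 (0.10 for Psmc1 to 0.40 for Psmc5), beside 5612 of 11133 genes. Within number 1, Psmc1 (-0.12) and Psmc4 (-0.14) lay below 0 and Psmc2, Psmc3 and Psmc5 did not. The other base and lid subunits went both ways, from -0.20 (Psmd4) to 0.35 (Psmd3). The 3 assembly chaperones lay between -0.08 and 0.03. The activator Psme3 was read at 3246 to 5814 in R98S (median 4085) and at 1979 to 5588 in WT (median 2776), a log2 fold change of 0.41 ± 0.18 (adjusted p = 0.118 by limma). Psme4 did not differ beyond its spread, at 2238 to 4080.3 in R98S (median 2887) and 2286 to 3851 in WT (median 2980.02), with -0.02 ± 0.12 (adjusted p = 0.923).

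With the replicate number as a block, the same limma fit called more members in total mRNA, 6 of 14 core and 7 of 20 cap genes, while the background rose to 38.4%. The core calls were then Psma1, Psmb3 and Psmb5 higher and Psma2, Psma5 and Psmb4 lower. The cap calls were Psmc3, Psmc5, Psmc6, Psmd3, Psmd6 and Psmd13 higher and Psmd4, a ubiquitin receptor, lower. Psme3 was also called (0.36 ± 0.14, adjusted p = 0.0532 by limma). Without the R98S libraries of clones 13 and 35 of number 2, an alternative chosen after seeing the data, 6 core and 6 cap genes were called, 4 and 6 of them higher, beside 34.2% of all genes. Without number 3, where 12.0% of all genes were called, the cap calls fell to 1, Psmc6. Psmd6 and Psmd13 lost theirs (adjusted p = 0.20 and 0.132 by limma). Without R98S clone 11, where 17.0% were called, only Psmd13 kept its call among the 3 (Psmd6 adjusted p = 0.131, Psmc6 0.299 by limma). Psmd4 was then called lower. Whichever clone or number was left out, the log2 fold change was at least 0.40 for Psmd6, 0.46 for Psmd13 and 0.24 for Psmc6.

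The balance of core to cap transcripts was compared library by library, as the mean log2 value of the 14 core genes minus that of the 20 cap genes. It was 0.14, 0.20 and 0.30 in the lowest, median and highest R98S library of total mRNA and 0.26, 0.32 and 0.35 in WT. Most R98S libraries lay below the WT range, and the R98S mean was 0.21 ± 0.06 (SD, n = 9) against 0.31 ± 0.03 (n = 8). Within number 1 the 3 R98S libraries (0.14 to 0.17) lay below the 2 WT libraries (0.26 and 0.32), and within number 2 they did too (0.18 to 0.22 against 0.31 to 0.35). In number 3 the ranges overlapped (0.20 to 0.30 against 0.28 to 0.33). These are values of chosen genes and carry no test. Of all gene-assigned reads in total mRNA, core genes took 0.161% to 0.244% and cap genes 0.193% to 0.324%, with both genotypes spread over most of these ranges.

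In polysomal RNA no member was called, beside 13.5% of 10707 genes. An unadjusted limma p under 0.05 was found for 3 of the 36 members (Psmd1, Psma2 and Psma5), beside 2326 of the 10707 genes. The edgeR quasi-likelihood test on recovered reads called none of the core or cap genes either, and DESeq2 called Psmd1 alone. The medians were -0.20 for the core, -0.05 for the cap and -0.02 over all genes. Number 3 held 3 of the 8 R98S but 3 of the 6 WT polysomal libraries. The mean log2 level of the core was 12.96 in number 3 and 11.52 in numbers 1 and 2. The part of this imbalance in the medians was not tested. No member had groups that did not overlap, which 4.96% of genes had. Psma2 ran from 2204 to 7014 in R98S (median 2919) and from 2832 to 12723 in WT (median 7405), a log2 fold change of -0.86 ± 0.39 (adjusted p = 0.208 by limma). Psma5 ran from 1726 to 5664 in R98S (median 2331) and from 2879.5 to 8806 in WT (median 5508), with -0.79 ± 0.37 (adjusted p = 0.223). These wide ranges follow the replicate number, since in both genotypes the number 3 libraries were the highest. With the number as a block, both core genes were called lower (Psma2 -0.66 ± 0.14, adjusted p = 0.00258; Psma5 -0.62 ± 0.12, adjusted p = 0.00187 by limma), with a background of 30.9%. In that fit Psmd6 (0.46, adjusted p = 0.0170) and Psmc6 (0.41, adjusted p = 0.0680) were higher and Psmd1 lower, and no other member was called. Within number 3, with 3 libraries of each genotype, Psma2 (-0.81, adjusted p = 0.0121) and Psma5 (-0.51, adjusted p = 0.0428 by limma) were lower, and Psmc6 (0.48, adjusted p = 0.0668) was higher; Psmd7, a lid subunit, was also lower there (-0.51, adjusted p = 0.0814). The differences within numbers 1 and 2 were -0.09 and -0.87 for Psma2, -0.42 and -0.94 for Psma5, -0.03 and 0.63 for Psmc6 and 0.17 and -0.03 for Psmd7. These 4 of 36 members stood beside 20.9% of all genes called within number 3. Total mRNA and polysomal RNA of a culture are not independent samples of its genotype.

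Psmd1, a large scaffold of the cap base, was read on polysomes at 1480.95 to 2235 in R98S (median 1586) and at 1408 to 2734 in WT (median 2314). The log2 fold change was -0.41 ± 0.17 (adjusted p = 0.150 by limma), whereas in total mRNA it was 0.19 ± 0.15. The single low WT value came from clone 29 of number 3, and the next WT library stood at 2197. The catalytic genes had polysomal log2 fold changes of -0.12 ± 0.32 (Psmb5), -0.19 ± 0.45 (Psmb6) and -0.21 ± 0.32 (Psmb7). Their values ran from 1518 to 4209 and 1115 to 4049 for Psmb5, from 1629 to 6714 and 1034 to 6783 for Psmb6, and from 1638 to 4912 and 1493 to 5420.2 for Psmb7, in R98S and WT. Psme3 was read at 3933 to 5748 in R98S and 3222 to 5711 in WT (0.21 ± 0.15), and Psme4 at 1611 to 2555 and 1652 to 2392 (0.06 ± 0.16). The genotypes overlapped for each of them.

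For the polysomal to total ratio no member was called (smallest adjusted p = 0.664 by limma), beside 0.0376% of 10627 genes, and none was called with the block, beside 0.47%. Groups that did not overlap occurred for none of the members and for 0.169% of all genes. None of the 23 alternatives, edgeR and DESeq2 included, called a core or cap gene. Psmd1 alone of the 36 members had an unadjusted limma p under 0.05, beside 633 of the 10627 genes. Its polysomal value was 0.459, 0.530 and 0.579 times the total value in the lowest, median and highest R98S culture and 0.530, 0.811 and 1.08 times in WT, so the R98S cultures sat together at the low end. The log2 difference was -0.58 ± 0.18 (adjusted p = 0.664 by limma) and was negative within each number, at -0.35, -0.81 and -0.46. The members with the next smallest p were Psmd3 (0.963 to 1.97 in R98S, median 1.33, and 0.843 to 2.43 in WT, median 2.02; -0.37 ± 0.24) and Psmb5 (1.27 to 2.77, median 1.83, and 0.743 to 4.92, median 3.13; -0.49 ± 0.36), and their groups overlapped. Psmb6 and Psmb7 had medians of 1.56 and 1.82 in R98S and 3.45 and 2.82 in WT, over ranges of 1.09 to 3.72 and 1.28 to 3.18 in R98S and 0.587 to 4.78 and 0.932 to 3.84 in WT. Psme3 had medians of 1.16 and 1.28 (0.899 to 1.46 and 0.724 to 2.34), and Psme4 0.657 and 0.686 (0.558 to 0.860 and 0.555 to 0.909).

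All 14 core genes and 18 of 20 cap genes had a ratio difference below 0, beside 5241 of 10627 genes. Over all genes with a length this difference rose with transcript length (Pearson r = 0.17 over 10126 genes). Core transcripts are short, with a median of 1163 bases beside 2909 for these genes. The part of length in the ratio difference was not tested. The medians of core and cap were -0.33 and -0.20, beside 0.01 over all genes, yet the direction of both turned in number 1. The mean log2 ratio of the core was 0.29 to 0.56 in the 3 R98S cultures of number 1 and -0.20 in the single WT culture. In number 2 it was 0.60 and 0.62 in R98S and 0.57 and 1.07 in WT, and in number 3 it was 1.57 to 1.84 in R98S and 2.00 to 2.19 in WT, without overlap. The mean log2 ratio of the cap was 0.14 to 0.25 in R98S and -0.06 in WT in number 1, 0.38 and 0.67 against 0.49 and 0.80 in number 2, and 0.59 to 0.84 against 0.85 to 1.08 in number 3. With the number as a block the core median was -0.07. The cap median ran from -0.44 to -0.06 over the 23 alternatives, the block included.

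**Figure D4:**
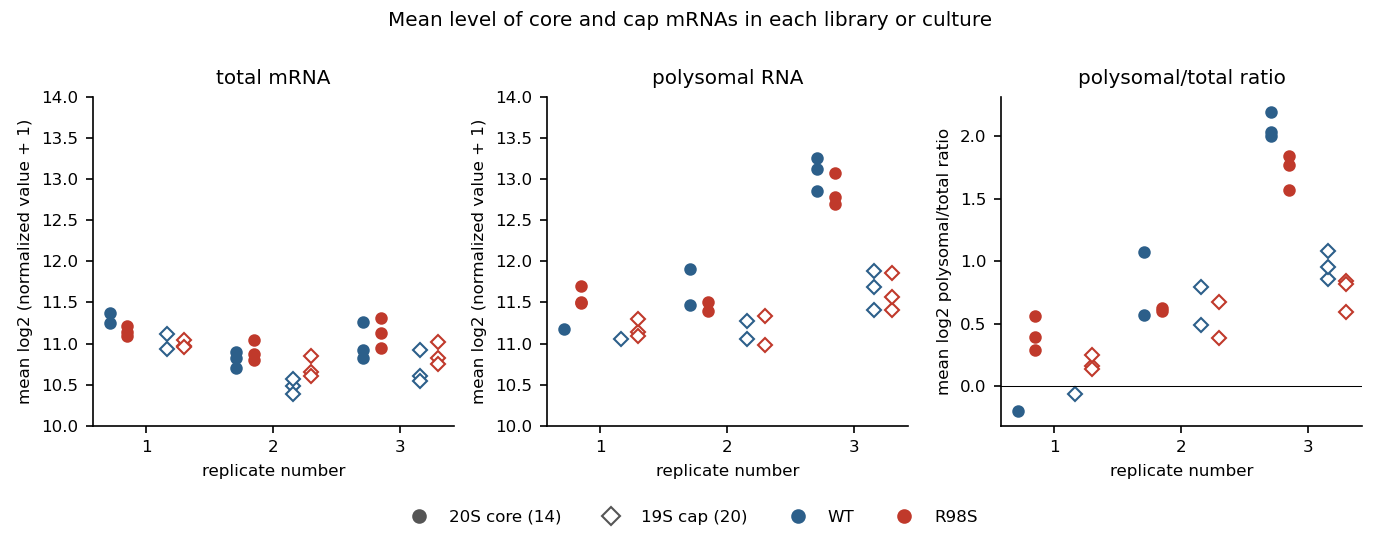
Mean log2 level of the 14 core genes (circles) and 20 cap genes (diamonds) in each library of total mRNA and polysomal RNA, and mean log2 ratio in each culture, by replicate number and genotype. In polysomal RNA the core lies between 11.2 and 11.9 in numbers 1 and 2 and between 12.7 and 13.3 in number 3, while the cap moves from 11.0 to 11.3 up to 11.4 to 11.9.

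A larger difference among these genes lay between replicate numbers, in the polysomal fraction. A limma fit with genotype as a covariate, added after seeing the data, compared number 3 (6 libraries) with numbers 1 and 2 (8 libraries). All 14 core genes were called higher in number 3, by a median log2 difference of 1.47 (0.87 for Psmb5 to 2.18 for Psma3), or 2.76-fold. Over all genes 35.4% were called higher and 36.7% lower. Of the 20 cap genes 14 were higher and 1, Psmd2, was lower (-0.45 ± 0.12), with medians of 0.34 for the ATPases, 0.43 for the other base and lid subunits and 1.03 for the 3 chaperones. The ranges of core and cap overlapped, since the cap ran from -0.45 to 1.13. Psma3, an alpha subunit, had the largest difference among the members at 2.18 ± 0.15, or 4.53-fold. Psme3 was higher by 0.28 ± 0.11, and Psme4 did not pass (-0.11 ± 0.14). Core genes took 0.28% to 0.43% of gene-assigned polysomal reads in numbers 1 and 2 and 0.62% to 0.85% in number 3, while cap genes took 0.37% to 0.49% and 0.36% to 0.47%.

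Total mRNA of the same numbers did not show this shift. There, 1 core gene, Psma1, was higher in number 3 (0.29 ± 0.09, adjusted p = 0.0693 by limma), no cap gene was called, and 5.44% of all genes were called higher. In the ratio all 14 core genes and 11 cap genes were again higher in number 3 (median 1.49 and 0.48), and 1 cap gene was lower. Of the 2 other activators 1 was higher and 1 lower. Over all genes 30.7% were called higher and 3562 of 10627 lower. The number 3 difference fell with transcript length across all genes (Pearson r = -0.59 over 10198 genes, which share the same 14 libraries), and core transcripts are short, with a median of 1163 bases beside 1711 for the cap and 2898 for all genes with a length. After each library was centred on a smooth curve over length and GC content, the core median was 0.47 and the cap median -0.09. Within the cap the corrected median was -0.30 for the ATPases, 0.16 for the other base and lid subunits and 0.65 for the 3 chaperones, above the core. The part of length in the difference, the handling of the fractions and the meaning of the numbers were not tested.

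**Figure D5:**
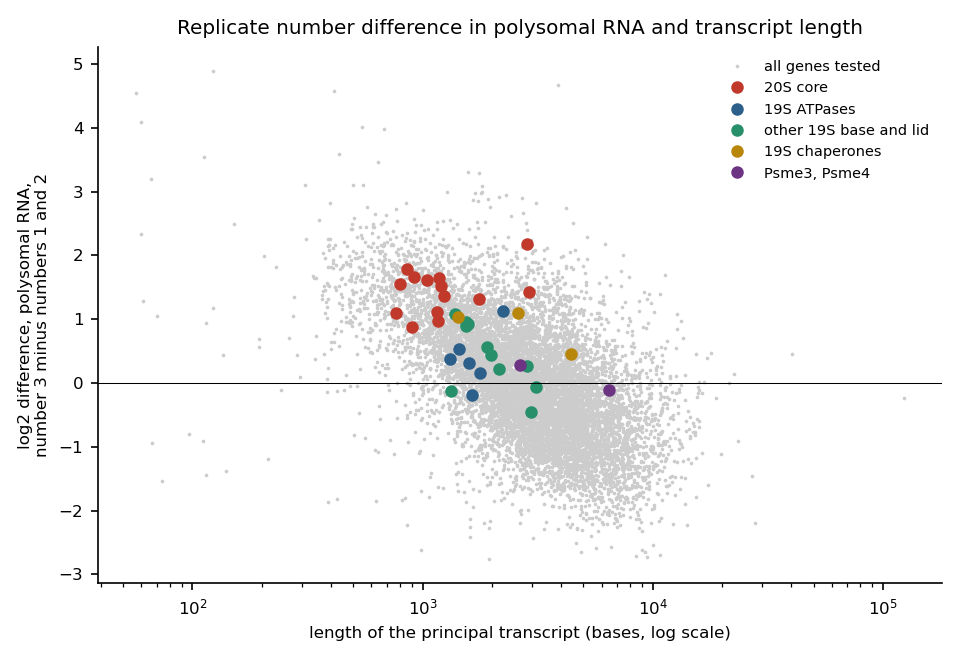
Log2 difference in polysomal RNA between replicate number 3 and numbers 1 and 2 against the length of the principal transcript on a log axis, for all genes with a length (grey) and the 36 members by subcomplex. The 14 core genes (red) all lie above 0, from 0.87 to 2.18, with a median length of 1163 bases, and 5 members (Psmc3, Psmd1, Psmd2, Psmd4 and Psme4) lie below 0, of which Psmd2 passed the test.

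Of 44 further genes of the pathway, 43 were tested. In total mRNA 10 were higher and 3 lower in R98S (30.2%, near the background of 30.3%). Higher were Psme1 (0.58 ± 0.11, adjusted p = 0.00101 by limma) and Psme2 (0.70 ± 0.16, adjusted p = 0.00485), which form the interferon-inducible activator ring, and the segregase Vcp (0.59 ± 0.13, adjusted p = 0.00314), which extracts ubiquitylated proteins. Reads of Psme2 and Vcp are uncertain too, with 59.3% and 60.1% of their windows shared with Psme2b and Vcp-rs. The shuttle receptor Rad23b was higher by 0.49 ± 0.12 (adjusted p = 0.00744 by limma). Akirin2, which helps proteasomes enter the nucleus, was higher by 0.44 ± 0.14 (adjusted p = 0.0292 by limma). Of the 3 called lower, 2 are named, after their values were seen: Zfand5, a proteasome-binding zinc finger protein (-0.44 ± 0.16, adjusted p = 0.0501), and the shuttle receptor Ubqln2 (-0.31 ± 0.11, adjusted p = 0.0467 by limma). By list, 3 of 5 immunoproteasome and activator genes, 1 of 6 core assembly factors, 3 of 9 cap-associated factors, 4 of 10 shuttle and segregase genes, 1 of 6 ubiquitin and ubiquitin-activating genes and 1 of 7 transcriptional regulators were called. Of the immunoproteasome catalytic subunits, Psmb8 was higher (0.26 ± 0.11, adjusted p = 0.0820 by limma), a call kept in 9 of 23 alternatives, and Psmb9 (0.04 ± 0.15) and Psmb10 (0.30 ± 0.16) did not pass. Nfe2l1 was read at 920.5 to 2126 in R98S (median 1592) and at 1044 to 1824 in WT (median 1697), a difference of -0.04 ± 0.16. In polysomal RNA 2 of the 43 were called (4.65%, beside 13.5% of all genes), both lower: Ube3c, a ligase bound to the cap (-0.54 ± 0.15, adjusted p = 0.0330), and the shuttle receptor Ubqln2 (-0.57 ± 0.19, adjusted p = 0.0753 by limma). With the number as a block, 4 were called higher and 5 lower, beside 30.9% of all genes, the 3 immunoproteasome and activator genes Psme1 (0.76), Psme2 (0.99) and Psmb9 (0.54) among the higher ones. In the ratio none was called in either fit.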

How the data were processed

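Total mRNA and polysomal RNA were sequenced from stranded poly(A) libraries. Per the labels and the study's methods, the authors removed rRNA and tRNA reads with Bowtie2, aligned with TopHat2 2.0.11 to GRCm38 (mm10), kept MAPQ of at least 10 and counted per gene; HTSeq is named in the submitters' processing notes, and the strand setting and annotation are not given in the sources used here. The deposited signal is gene counts divided by DESeq2 size factors, in separate tables for the fractions. A WT clone 36 library of number 1 was left out by the authors because it clustered with R98S libraries, and it is not analysed here. Whole reads were recovered from the steps of the values (100% whole).

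Members and gene lists were chosen with earlier results of these data known. All members are accounted for, and library values are given for up to 8 called members per comparison, the catalytic subunits, Psme3, Psme4 and, where none was called, the 3 with the smallest p; for other lists, counts and the 6 called genes with the smallest adjusted p (1 of them is not reported here), Nfe2l1, Psmb8, Psmb9 and Psmb10. Zfand5 and Ubqln2 in total mRNA, and the genes named under the block, were chosen after their values were seen. The main test was limma 3.58.1 (R 4.3.3) with trend on log2(value + 1), genotype only, genes with a mean of at least 10, Benjamini-Hochberg over all genes, adjusted p under 0.1, two-sided. The ratio is the log2 difference per culture, with the variance trend taken over mean expression, a choice made after inspecting the data. Fold changes on this scale understate those of low genes. Libraries of 1 genotype come from 3 clones, so p-values measure the spread between libraries, which include repeats of a clone. Deviations of same-numbered R98S and WT libraries correlated in every number (r = 0.48 to 0.62 in total mRNA, 0.67 to 0.87 in polysomal RNA, 0.54 to 0.81 in the ratio), so the numbers pair the samples. Alternatives were the replicate block, pseudocount 10, no filter, TMM, clone means, edgeR 4.0.16, DESeq2 1.42.0, a GC and length correction, and leaving out clones, numbers or libraries. Lengths, GC content and positions came from GENCODE M21 (GRCm38), which matched 36776 of 41255 symbols. The scripts were tested on simulated data.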

Additional observations from a re-analysis of the deposited data

Results flagged for a closer look

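Among 216 sets of libraries (36 members, 3 measures, 2 genotypes), 7 held a library whose distance from the next exceeded Dixon's critical value, where chance gives about 1 in 20. In total mRNA, Psma1 stood at 4417 in R98S clone 13 of number 3, above the other R98S libraries (2495 to 3283), and Psmb1 at 4305 in R98S clone 11 of number 3 (others 3207 to 3719). In polysomal RNA, Psmd1 stood at 1408 in WT clone 29 of number 3, below the other WT libraries (2197 to 2734).

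In the ratio, the WT culture of clone 29 of number 1 lay below the other WT cultures for 3 cap ATPases: 0.820 for Psmc1 (others 1.53 to 2.02), 0.805 for Psmc4 (others 1.80 to 2.89) and 0.830 for Psmc5 (others 2.13 to 3.16). It is the only WT culture of that number with a ratio. Psmd4 stood at 2.57 in WT clone 28 of number 2 (others 0.904 to 1.32).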

How the results depend on the processing

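The median log2 fold changes of core and cap turned sign in some settings. In total mRNA the core median of 0.11 became -0.08 and the cap median of 0.13 became -0.06 within number 1, and both stayed above 0 in the leave-outs. In polysomal RNA the core median of -0.20 ranged from -0.66 without WT clone 29 to 0.10 without number 3, and the cap median of -0.05 from -0.29 to 0.08 in the same settings. Counts of called members moved as follows, with the share of all genes called in each setting in parentheses. In total mRNA (30.3%), the core count of 2 became 6 with the replicate block (38.4%), 4 with clone means (28.1%), 5 with the GC and length correction (32.8%), 6 with that correction and the replicate block (40.3%), 0 within number 2 (2.16%), 0 within number 3 (9.40%) and 6 without R98S clones 13 and 35 of number 2 (34.2%; chosen after seeing the data). The cap count of 3 became 7 with the replicate block, 5 with the correction and block, 6 without those libraries, 0 within numbers 1 (12.3%) and 2 and 1 within number 3; leaving out a clone or number gave 1 (without number 3, 12.0%) to 5 (without number 1, 23.8%), and for the core 2 to 3. In polysomal RNA (13.5%), the core count of 0 became 2 with the replicate block (30.9%), 2 with the correction (27.1%), 3 with both (38.2%), 2 within number 3 (20.9%) and 1 without the WT clone 29 library of number 1 (13.4%; also chosen after seeing the data), and leave-outs gave 0 to 4 (1 without WT clone 29, 12.4%, and 4 without number 3, 19%). The cap count of 0 became 3 with the replicate block, 1 with DESeq2 (17.8%), 1 with the correction, 4 with both and 2 within number 3, and leave-outs gave 0 to 2. Psma7 in polysomal RNA turned from -0.08 to 0.37 without number 3, and ranged down to -0.44 without WT clone 29. The ratio counts stayed at 0 in all alternatives. The core median of the ratio ranged from -0.81 without WT clone 29 to 0.04 without number 3, and the cap median of -0.20 reached -0.44 without WT clone 29. In polysomal RNA and the ratio, number 3 held 3 of 8 R98S but 3 of 6 WT samples, and core genes were higher there. Its part in these movements, and their cause, were not tested.

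The limits are the 3 clones per genotype, the single WT polysomal library of number 1, and other annotated genes that share sequence with Psmb5, Psmb3, Psma5, Psme2 and Vcp. Depth removed no member from the tests.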
